A study of Homo sapiens with 4 samples.

Results

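The ABC drug efflux transporters are membrane pumps of the ATP-binding cassette superfamily, and 10 of their genes were followed here by their names: *ABCB1*, *ABCG2*, *ABCC1*, *ABCC2*, *ABCC3*, *ABCC4*, *ABCC5*, *ABCC10*, *ABCB6* and *ABCA1*. The members were chosen by name, out of 48 genes of the superfamily and 16813 genes listed in at least 1 library. Of the 10 members, 9 were listed in all 4 libraries and were tested, and *ABCB1* was listed in none. The libraries came from PC9 cells, a human lung adenocarcinoma line that carries an activating *EGFR* mutation and is sensitive to EGFR inhibitors, and from PC9OR cells, a subline of PC9 with resistance to osimertinib, an EGFR kinase inhibitor. Each line had 2 replicate libraries, both lines carry the genotype label WT, and both were grown in RPMI medium with serum. The sources used here do not say whether PC9OR is a single clone or a pool, or whether osimertinib was in the medium when RNA was taken, so the comparison is of a single resistant subline with its parent. Nothing in the labels ties the replicates to separate cultures beyond their being called biological. The p-values therefore weigh the difference between the lines against the spread between these replicate libraries only.

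An ABC transporter binds ATP at a pair of cytosolic domains and uses its hydrolysis to move a substrate across a membrane. P-glycoprotein (*ABCB1*) and BCRP (*ABCG2*) export a broad range of hydrophobic drugs, and osimertinib is known as a substrate of both. The multidrug resistance proteins of the ABCC family export drugs and their conjugates with glutathione, glucuronide or sulfate, while *ABCB6* handles porphyrins and *ABCA1* hands cholesterol and phospholipid to apolipoproteins. In tumour cells the family is known for lowering the amount of drug inside the cell.

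Expected counts summed to between 23201307 and 32203998 per library. The counts of replicates differed by more than counting noise, with a chi-square per gene of 65.5 between the PC9 libraries and 9.93 between the PC9OR libraries. Of 10 lung adenocarcinoma and epithelial markers, 6 were tested. In PC9OR 3 were higher and 2 lower, beside 15.6% and 20.8% of all genes tested. The summed level of the 10 markers was 2277 and 2525 FPKM in PC9 and 4752 and 4619 FPKM in PC9OR. *KRT8*, a simple epithelial keratin, reached 669 and 778 FPKM in PC9 and 1737 and 1717 FPKM in PC9OR. The lower ones were *CDH1*, the epithelial cadherin, at 69.5 and 49.5 FPKM in PC9 and 22.02 and 20.07 FPKM in PC9OR (log2 fold change -1.46, adjusted p = 0.00814), and *EGFR*, the target of osimertinib, at 153 and 96.8 FPKM in PC9 and 40.9 and 37.5 FPKM in PC9OR (log2 fold change -1.46, adjusted p = 0.0132). The lung lineage markers were absent or nearly so: *SFTPB* and *SFTPC* were listed in no library, *NAPSA* did not pass 0.17 FPKM, and *NKX2-1*, the lung lineage factor, was listed only in PC9OR, at 0.04 and 0.12 FPKM. Of 10 markers of other cell types, 8 were listed in at least 1 library, and their summed level was 12.98 and 9.35 FPKM in PC9 and 3.72 and 3.51 FPKM in PC9OR. Nearly all of that sum was *CDH5*, an endothelial cadherin, and *CD68*, a lysosomal protein of macrophages, and both were lower in PC9OR (log2 fold change -2.57, adjusted p = 0.00529, and -1.10, adjusted p = 0.0158). *CD3E* and *ALB* were listed in no library and *PTPRC*, the pan-leukocyte marker, was listed in 1 of the 4, at 0.02 FPKM. Whether these markers have a part in the changes of the transporters was not tested. In bulk RNA, fewer cells with a transcript and less of it per cell cannot be told apart.

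Levels are given in FPKM, the count of a gene scaled by its transcript length and by the library's total, which allows a comparison between genes. In PC9 the order of the mean FPKM was *ABCC3*, *ABCC1*, *ABCC5*, *ABCC2*, *ABCA1*, *ABCG2*, *ABCB6*, *ABCC4* and *ABCC10*. The ranges of the replicates overlapped between *ABCC3* and *ABCC1*, between *ABCC1* and *ABCC5* and between *ABCC2* and *ABCA1*. Within each PC9 library *ABCC3* was still above *ABCC1*, at 43.84 against 31.47 FPKM in replicate 1 and 29.97 against 19.28 FPKM in replicate 2. The order of *ABCC1* and *ABCC5*, and that of *ABCC2* and *ABCA1*, turned between the replicates. In PC9OR the order was *ABCC3*, *ABCC5*, *ABCA1*, *ABCC2*, *ABCC1*, *ABCB6*, *ABCG2*, *ABCC4* and *ABCC10*, and only *ABCC1* and *ABCB6* overlapped. *ABCC1* thus stood at rank 2 in PC9, above 83.2% of the genes listed in both PC9 libraries, and at rank 5 in PC9OR, above 53.5%. *ABCC3* was the most abundant member in each of the 4 libraries.

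The summed FPKM of the members was 154 and 119 in the PC9 replicates and 96.3 and 95.4 in the PC9OR replicates. Both PC9 libraries lay above both PC9OR libraries, with no allowance for the trend of fold change with transcript length given below. *ABCC1* made up 20.5% and 16.2% of that sum in PC9 and 5.99% and 5.71% in PC9OR, and *ABCC3* made up 28.5% and 25.2% in PC9 and 36.3% and 35.2% in PC9OR. Over the whole superfamily of 48 genes the sum was 423 and 391 FPKM in PC9 and 374.5 and 374.4 FPKM in PC9OR.

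**Figure D1:**
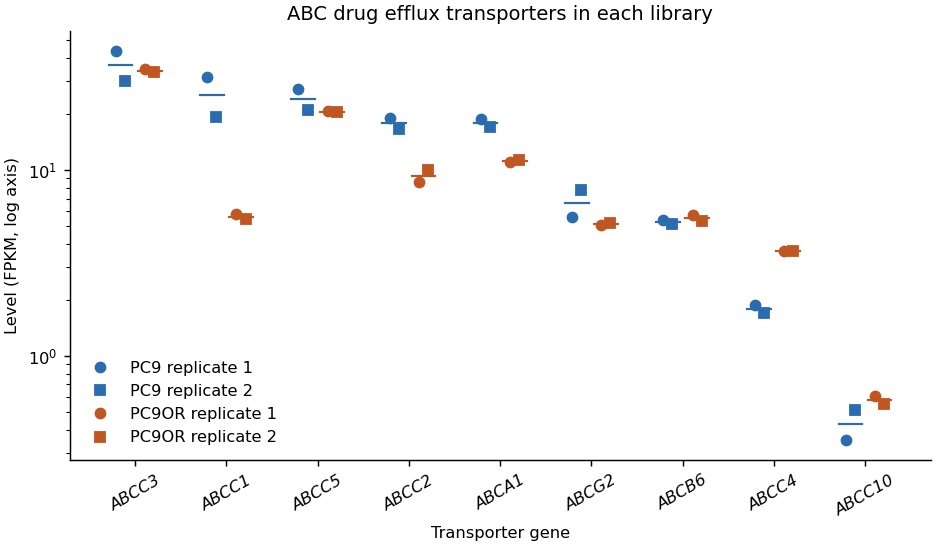
Level of each listed transporter in FPKM on a log axis, with PC9 in blue and PC9OR in orange, circles for replicate 1, squares for replicate 2 and a line at the mean of each line. The PC9OR points of *ABCC1*, *ABCC2*, *ABCA1*, *ABCG2* and *ABCC5* lie below both PC9 points. Those of *ABCC4* and *ABCC10* lie above them, and the points of *ABCC3* and *ABCB6* overlap.

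At an adjusted p under 0.05 (edgeR's quasi-likelihood test on the rounded counts, with Benjamini-Hochberg adjustment over all 13148 genes tested), 1 of the 9 tested members, *ABCC4*, was higher in PC9OR and 3, *ABCC1*, *ABCC2* and *ABCA1*, were lower. Among all genes tested, 15.6% were called higher and 20.8% lower. The call of *ABCA1* was lost when the fit allowed for transcript length, as given with its values below. The median log2 fold change of the 9 members was -0.32, beside 0.01 for all genes. Offsets for transcript length moved it to 0.12, beside 0.07 for all genes, and those for length plus GC content to 0.15, beside 0.06. In CPM, counts scaled to the library's normalized total, the libraries of the lines did not overlap for 8 members, of which 3 (*ABCC4*, *ABCC10* and *ABCB6*) were higher in PC9OR and 5 (*ABCG2*, *ABCC1*, *ABCC2*, *ABCC5* and *ABCA1*) lower. Of all genes tested, 39.6% lay apart and higher and 38.2% apart and lower, so such a gap was shared by most genes in these data.

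*ABCB1* (Entrez gene 5243) lies on the minus strand of chr7:87132333-87342639 on GRCh37, with 28 exons in its canonical transcript. It encodes P-glycoprotein, the founding member of the family in drug resistance. The gene was in none of the 4 libraries' lists and was taken as 0 in each. The lists stop at genes whose FPKM rounds to at least 0.01, so for its canonical transcript of 5205 bases an estimate of up to between 0.839 and 1.19 counts per library would also go unlisted. A floor of 3 counts corresponded to between 0.0126 and 0.0179 FPKM, and no fold change was computed. *ABCB1* transcripts were therefore below detection at this depth in both lines. The nearest tested genes on either side were *CROT*, a carnitine acyltransferase of peroxisomes (log2 fold change 0.51, adjusted p = 0.0898), and *SLC25A40*, a mitochondrial carrier (log2 fold change 0.31, adjusted p = 0.164).

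*ABCG2* (Entrez gene 9429, chr4:89011302-89152780, minus strand) encodes BCRP, which works as a dimer at the plasma membrane. It reached 5.56 and 7.78 FPKM in PC9 and 5.08 and 5.21 FPKM in PC9OR. Both PC9OR libraries were below both PC9 libraries, but the PC9 libraries differed from each other by more than the nearer of them differed from PC9OR. The log2 fold change was -0.34 (standard error 0.196, 95% interval -0.84 to 0.16, adjusted p = 0.214). It was -0.59 without PC9 replicate 1 (adjusted p = 0.00862), -0.08 without PC9 replicate 2 (adjusted p = 0.502) and -0.12 with length offsets (adjusted p = 0.684), so the outcome for *ABCG2* depended on which PC9 library was kept.

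*ABCC1* (Entrez gene 4363) lies on the plus strand of chr16:16042995-16237114, with 31 exons, and encodes MRP1, which exports glutathione conjugates such as leukotriene C4 together with several anticancer drugs. It showed the largest change of the members. The level was 31.47 and 19.28 FPKM in PC9, averaging 25.4 ± 8.62 (SD, n = 2), and 5.77 and 5.45 FPKM in PC9OR, averaging 5.61 ± 0.226 (SD, n = 2). The lower PC9 library was still well above both PC9OR libraries, and the PC9 replicates lay farther apart than for any other member, by 0.67 on the log2 scale of CPM against 0.06 in PC9OR. The fitted log2 fold change was -2.14 (standard error 0.244, 95% interval -2.76 to -1.51, adjusted p = 0.00706), a level 4.4-fold lower in PC9OR. Of all genes tested, 4.33% had a lower log2 fold change. Leaving out any library gave values from -2.45 to -1.77, and with offsets for length it was -1.68 (adjusted p = 0.00259). With those for length plus GC content it was -1.45 (adjusted p = 0.0015), a smaller fold. The call was made in 17 of 17 fits.

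*ABCC2* (Entrez gene 1244, chr10:101542397-101612351, plus strand, 32 exons) encodes MRP2, an apical exporter of glucuronides and glutathione conjugates best known from the bile canaliculus. It reached 19.13 and 16.71 FPKM in PC9, averaging 17.9 ± 1.71 (SD, n = 2), and 8.57 and 9.95 FPKM in PC9OR, averaging 9.26 ± 0.976 (SD, n = 2). All PC9OR values were below all PC9 values, and the gap between the lines was wider than that within either. On the log2 scale the change was -0.91 (standard error 0.136, 95% interval -1.26 to -0.57, adjusted p = 0.0112). It was -0.58 with offsets for length (adjusted p = 0.0174), a fold closer to 1. Without PC9OR replicate 1 it was -0.79 and missed the threshold, with an adjusted p of 0.1.

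*ABCC3* (Entrez gene 8714, chr17:48712138-48769614, plus strand) encodes MRP3, a basolateral exporter of glucuronides and bile salts. The level was 43.84 and 29.97 FPKM in PC9 and 34.99 and 33.61 FPKM in PC9OR. The PC9OR values lay between the PC9 values, so the lines overlapped. The log2 fold change was -0.05 (standard error 0.186, 95% interval -0.52 to 0.43, adjusted p = 0.851). Its sign turned with the setting: 0.25 with offsets for length (adjusted p = 0.193), 0.45 with those for length plus GC content (adjusted p = 0.0118), 0.22 without PC9 replicate 1 (adjusted p = 0.0393) and -0.29 without PC9 replicate 2 (adjusted p = 0.0129). No direction can be given for *ABCC3* from these libraries.

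*ABCC4* (Entrez gene 10257) lies on the minus strand of chr13:95672089-95953729, with 31 exons, and encodes MRP4, an exporter of cyclic nucleotides, prostaglandins and nucleotide analogues. It was the only member called higher in PC9OR. The level was 1.87 and 1.69 FPKM in PC9, averaging 1.78 ± 0.127 (SD, n = 2), and 3.67 and 3.68 FPKM in PC9OR. The PC9OR values exceeded both PC9 values, and each pair of replicates lay close together. Its log2 fold change was 1.13 (standard error 0.139, 95% interval 0.78 to 1.49, adjusted p = 0.00811), a level 2.19-fold higher, and 7.26% of all genes tested had a higher one. It was 1.47 with offsets for length (adjusted p = 0.00199) and ran from 1.04 to 1.21 with each library left out, and the call was made in 17 of 17 fits. Even so, *ABCC4* stood next to last of the listed members in both lines.

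*ABCC5* (Entrez gene 10057, chr3:183637722-183735727, minus strand) encodes MRP5, which like MRP4 exports cyclic nucleotides and nucleotide analogues. It reached 27.27 and 21.04 FPKM in PC9 and 20.83 and 20.41 FPKM in PC9OR. PC9 replicate 1 stood above the other 3 libraries, which were close together. The fitted log2 fold change was -0.32 (standard error 0.171, 95% interval -0.76 to 0.12, adjusted p = 0.191). It was -0.54 without PC9 replicate 2 (adjusted p = 0.00293), -0.09 without PC9 replicate 1 (adjusted p = 0.293) and -0.09 with length offsets (adjusted p = 0.602). The transcript length, weighted by isoform use, was 4597 and 4284 bases in PC9 and 4086 and 4100 bases in PC9OR. Both PC9OR values were shorter, but the PC9 replicates differed by more than PC9 replicate 2 differed from either PC9OR library. The difference between the lines was not tested.

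*ABCC10* (Entrez gene 89845, chr6:43395104-43418165, plus strand) encodes MRP7, which is known to export taxanes. It was the least abundant listed member, with 0.35 and 0.51 FPKM in PC9 and 0.61 and 0.55 FPKM in PC9OR. Both PC9OR values were slightly above both PC9 values. The log2 fold change was 0.44 (standard error 0.309, 95% interval -0.35 to 1.24, adjusted p = 0.295), the widest interval of the members. The gene shares 76 exon bases with *DLK2* on the opposite strand, and the counting strand is not given in the sources used here.

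*ABCB6* (Entrez gene 10058, chr2:220074494-220083716, minus strand) encodes a transporter of porphyrins that works as a dimer. It reached 5.39 and 5.12 FPKM in PC9 and 5.70 and 5.32 FPKM in PC9OR, and the lines overlapped in FPKM. In CPM they lay narrowly apart, at 22.14 and 21.5 in PC9 and 23.97 and 22.79 in PC9OR. This gave a log2 fold change of 0.10 (standard error 0.126, 95% interval -0.22 to 0.42, adjusted p = 0.555). *ABCB6* shares 2805 exon bases with another annotated protein-coding gene on the same strand, which the files do not list, so its counts could include reads of that gene. Of the members with no call, its replicates were the closest in PC9.

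*ABCA1* (Entrez gene 19) lies on the minus strand of chr9:107543287-107690436, with 50 exons, and is the cholesterol exporter that loads apolipoprotein A-I. The level was 18.74 and 16.96 FPKM in PC9, averaging 17.9 ± 1.26 (SD, n = 2), and 11.07 and 11.25 FPKM in PC9OR, averaging 11.2 ± 0.127 (SD, n = 2). Both PC9OR libraries were below both PC9 libraries. Its log2 fold change was -0.64 (standard error 0.106, 95% interval -0.91 to -0.37, adjusted p = 0.0137). *ABCA1* also had the longest transcript of the members, 10500 bases on average, and of the 10 equal sets into which all tested genes were divided by length, the longest had a median log2 fold change of -0.58. With offsets for length its log2 fold change was 0.12 (adjusted p = 0.469) and with those for length plus GC content 0.15 (adjusted p = 0.331), so the sign turned and the call was lost. Without PC9OR replicate 1 or 2 it was -0.61 (adjusted p = 0.180) or -0.66 (adjusted p = 0.157).

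**Figure D2:**
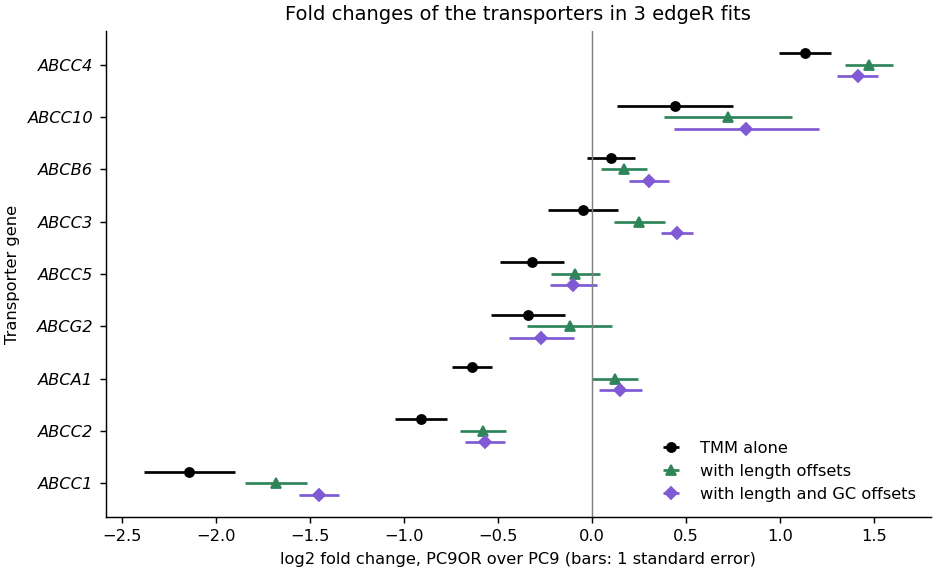
Log2 fold change of each tested transporter, PC9OR over PC9, from edgeR fits with TMM alone (black circles), with offsets for transcript length (green triangles) and with those for length plus GC content (purple diamonds), with bars of 1 standard error. *ABCC1* and *ABCC2* lie below 0 and *ABCC4* above 0 in all 3 fits, while *ABCA1* moves from -0.64 to 0.12 and 0.15.

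Transcript length was examined for all members because the long transcripts of the family differ from most genes. The tested members had a median length of 5062 bases, from 3018 for *ABCB6* to 10500 for *ABCA1*, against 2989 bases for all tested genes. Across all tested genes, which are not independent replicates and share the same 4 libraries, the log2 fold change had a rank correlation of -0.34 with length, and that of PC9 replicate 2 over replicate 1 had one of -0.38. For PC9OR replicate 2 over replicate 1 it was -0.0064. The set of genes, by length, that holds *ABCC1*, *ABCC2* and *ABCC4*, from 5080 to 6582 bases, had a median of -0.29 with quartiles at -0.82 and 0.19. *ABCC1* and *ABCC2* were below the lower quartile of that set, and *ABCC4* was above the upper one.

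**Figure D3:**
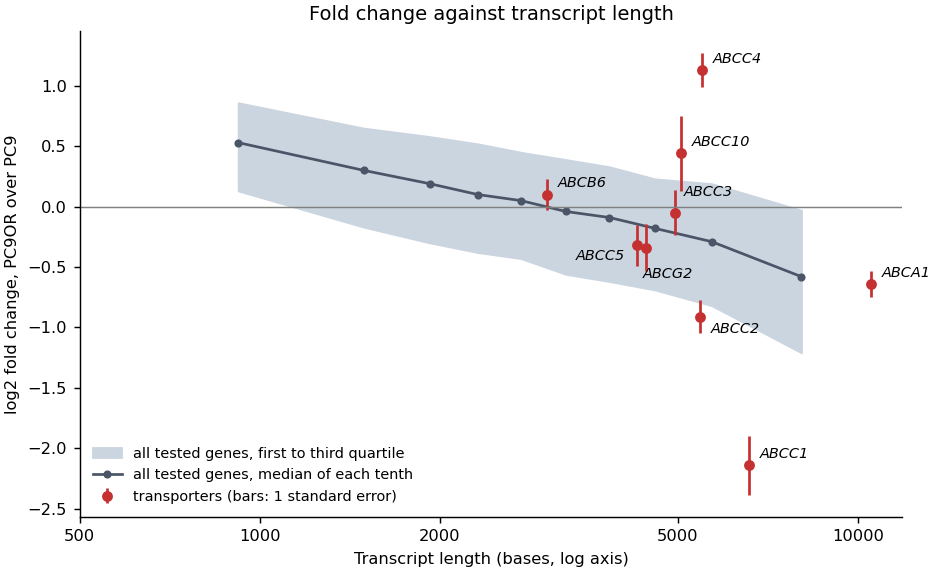
Log2 fold change, PC9OR over PC9, against transcript length in bases on a log axis. The line and the band give the median and the quartiles of each of 10 equal sets of the tested genes by length, which fall from 0.53 to -0.58 at the median, and the red points give the 9 tested transporters with bars of 1 standard error.

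The gap between replicates was wider in PC9 than in PC9OR for 7 of the 9 tested members, beside 74.3% of all genes tested. The gap between the PC9 replicates was 0.50 or more on the log2 scale of CPM for *ABCC1*, *ABCG2*, *ABCC3* and *ABCC10*. *ABCC1*, *ABCC3*, *ABCC5*, *ABCC2*, *ABCC4*, *ABCA1* and *ABCB6* were higher in PC9 replicate 1, and *ABCG2* and *ABCC10* in PC9 replicate 2. The exceptions to the wider PC9 gap were *ABCC2*, with 0.16 in PC9 and 0.24 in PC9OR, and *ABCB6*, with 0.04 and 0.07.

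The genes next to the called members on their chromosomes were read in the same fit. Beside *ABCC1*, *CEP20*, a centrosomal gene, had a log2 fold change of 0.26 (adjusted p = 0.140) and *NOMO3* one of -0.20 (adjusted p = 0.912). Of the 10 nearest tested genes, 1 was called higher and 5 lower, with a median of -0.60. The shares called over all genes tested were 15.6% higher and 20.8% lower. *NOMO3* belongs to a set of near-identical copies, so its count is uncertain. Beside *ABCC4*, *GPR180* was at 0.0029 (adjusted p = 0.988) and the non-coding *DNAJC3-DT* at 0.44 (adjusted p = 0.838), and of the 10 nearest genes 1 was called, lower. *CUTC* and *DNMBP*, on either side of *ABCC2*, were at 0.24 (adjusted p = 0.294) and -0.74 (adjusted p = 0.0613). *NIPSNAP3B* and *SLC44A1*, on either side of *ABCA1*, were at -1.16 (adjusted p = 0.232) and -0.25 (adjusted p = 0.104). None of these 8 flanking genes was called. Among the 10 nearest tested genes, 3 were called higher and 1 lower around *ABCC2* (median 0.27), and 1 higher and 0 lower around *ABCA1* (median 0.07). Of the flanking genes of the other members, *SPATA20* beside *ABCC3* (1.01, adjusted p = 0.0101) and *ZFAND2B* beside *ABCB6* (0.65, adjusted p = 0.0305) were higher, *ATG9A* beside *ABCB6* (-0.77, adjusted p = 0.0253) and *ZNF318* beside *ABCC10* (-0.96, adjusted p = 0.0269) were lower, and the log2 fold changes of *PKD2*, *PPM1K*, *ANKRD40*, *PARL*, *EIF2B5* and *DLK2* did not pass the test.

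The upstream windows of *ABCC4*, *ABCC2* and *ABCA1* are shown because these genes were called, *ABCC4* higher and the others lower, and differ in base composition. Each is the 250 bases before the gene's start in RefSeq on GRCh38.p14, a later build than the GRCh37 of the counts, written on the gene's strand, with matches to 6 short motifs in capitals. The windows are *ABCC4* at chr13:95301452-95301701 on the minus strand, *ABCC2* at chr10:99782390-99782639 on the plus strand and *ABCA1* at chr9:104928156-104928405 on the minus strand.
ABCC4: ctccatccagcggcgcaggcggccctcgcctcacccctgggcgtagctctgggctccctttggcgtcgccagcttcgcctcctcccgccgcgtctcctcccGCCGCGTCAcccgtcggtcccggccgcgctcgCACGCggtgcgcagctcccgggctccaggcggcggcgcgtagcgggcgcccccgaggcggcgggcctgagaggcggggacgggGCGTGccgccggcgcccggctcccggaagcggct
ABCC2: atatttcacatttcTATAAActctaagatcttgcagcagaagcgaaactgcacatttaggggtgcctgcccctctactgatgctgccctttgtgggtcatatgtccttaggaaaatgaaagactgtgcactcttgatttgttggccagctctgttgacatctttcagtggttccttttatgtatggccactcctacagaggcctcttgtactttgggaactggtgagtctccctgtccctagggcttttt
ABCA1: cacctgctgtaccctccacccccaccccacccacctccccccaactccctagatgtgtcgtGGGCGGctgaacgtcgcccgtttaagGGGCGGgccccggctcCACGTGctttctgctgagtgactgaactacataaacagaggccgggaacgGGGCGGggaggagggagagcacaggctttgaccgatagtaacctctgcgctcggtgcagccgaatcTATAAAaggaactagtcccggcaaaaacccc

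The motifs were searched on both strands in 35114 such windows. They were the TATA box TATAAA, held by 10.7% of windows, the CCAAT box CCAAT (32.0%), the GC box GGGCGG (42.6%), the E box CACGTG (6.35%), the antioxidant response element core TGACNNNGC (10.9%) and the xenobiotic response element core GCGTG (32.2%). The *ABCC4* window had a GC content of 80.4%, against a median of 58.0% over all windows, and held GCGTG in both orientations and the antioxidant core on the opposite strand. The *ABCC2* window had a GC content of 45.6% and held TATAAA alone, 236 bases before the start. The *ABCA1* window, at 61.6% GC, held TATAAA 31 bases before the start, CACGTG and 3 GC boxes. The table used held windows for 8 members, all but *ABCC1* and *ABCC3*. Of these genes 4 had TATAAA, 2 CCAAT, 5 GGGCGG, 4 CACGTG, 3 TGACNNNGC and 4 GCGTG in at least 1 window. Counted by window, as the percentages above were, 4 of their 14 windows held TATAAA, 2 CCAAT, 6 GGGCGG, 5 CACGTG, 3 TGACNNNGC and 6 GCGTG. Some windows of *ABCG2* overlap. In the *ABCB6* window the antioxidant core overlaps the E box. These matches describe the letters of the windows and say nothing about binding in these cells.

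Of the other 38 genes of the superfamily, 30 were listed and 20 tested. In PC9OR 2 were higher and 7 lower, beside 15.6% and 20.8% of all genes tested, and 11 of the 20 did not pass the test. The median log2 fold change of the 20 was -0.17, and length offsets moved it to 0.22, those for length plus GC content to 0.24. Over all genes tested these medians were 0.01, 0.07 and 0.06. *ABCA2*, a lipid transporter of lysosomes, was at 3.24 and 2.23 FPKM in PC9 and 0.29 and 0.71 FPKM in PC9OR (log2 fold change -2.41, adjusted p = 0.0192). *ABCC9*, a subunit of ATP-sensitive potassium channels and no drug pump, was at 0.71 and 0.30 FPKM in PC9 and 0.10 and 0.12 FPKM in PC9OR (log2 fold change -2.18, adjusted p = 0.0271). Only for these 2 of the 20 was the called change more than 2-fold.

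The 5 most abundant of these other ABC genes were *ABCD3*, *ABCF2*, *ABCE1*, *ABCF1* and *ABCF3*. *ABCD3*, a fatty acid transporter of peroxisomes, reached 38.2 and 49.8 FPKM in PC9 and 78.4 and 81.2 FPKM in PC9OR, and rose by a log2 fold change of 0.91 (adjusted p = 0.0137). *ABCF2* was at 52.9 and 54.1 FPKM in PC9 and 39.7 and 39.1 FPKM in PC9OR, and its log2 fold change of -0.35 (adjusted p = 0.0478) was not called with offsets for length (-0.24, adjusted p = 0.121). *ABCE1*, a ribosome recycling factor, *ABCF1* and *ABCF3* did not pass the test. Other called genes (log2 fold changes in brackets), named after their values were seen, included the peptide transporters of antigen presentation *TAP1* (-0.73) and *TAP2* (-0.92), the sterol exporter *ABCG1* (-0.73) and *ABCD4* (0.64), which acts in cobalamin handling. *ABCB4*, the phospholipid transporter next to *ABCB1* in the family, did not pass 0.01 FPKM in any library and was not tested.

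**Figure D4:**
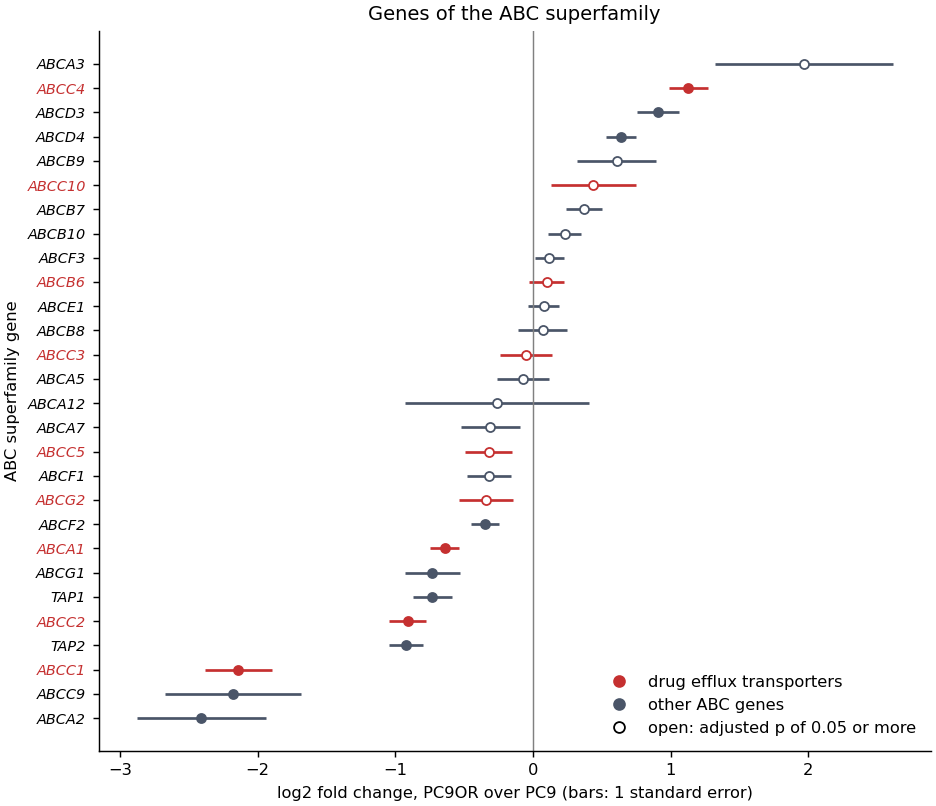
Log2 fold change, PC9OR over PC9, of 28 tested genes of the ABC superfamily with bars of 1 standard error, the drug efflux transporters in red and the others in grey, with open points where the adjusted p was 0.05 or more. *ABCC4* is the highest filled point, and *ABCC1* lies next to *ABCC9* and *ABCA2* at the low end.

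Drugs also enter cells through carriers, and 28 uptake carriers of organic ions, nucleosides, folate, peptides and copper were followed. Of these 22 were listed and 17 tested. In PC9OR 3 were higher, 6 lower and 8 not called, with a median log2 fold change of -0.57. The shares over all genes tested were 15.6% higher and 20.8% lower, with a median of 0.01. *SLCO4A1*, an organic anion transporter, was at 58.3 and 58.5 FPKM in PC9 and 23.3 and 21.6 FPKM in PC9OR (log2 fold change -1.35, adjusted p = 0.00453). Its relative *SLCO3A1* was at 9.35 and 6.67 FPKM in PC9 and 1.78 and 1.88 FPKM in PC9OR (log2 fold change -2.13, adjusted p = 0.00493). *SLC28A3*, a concentrative nucleoside transporter, was also lower (-1.70, adjusted p = 0.0216), at under 0.4 FPKM in every library. *SLC29A4*, a monoamine transporter, was higher (3.11, adjusted p = 0.0138), from 0.03 and 0.05 FPKM in PC9 to 0.43 and 0.31 FPKM in PC9OR. *SLCO1A2* was listed in neither PC9 library and was at 0.07 and 0.04 FPKM in PC9OR, at least 4.85-fold higher against a floor of 3 counts per library (adjusted p = 0.0211).

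Other efflux proteins were few. Of 6 genes, 5 were tested. In PC9OR 2 were higher and 0 lower, with a median of 1.2, against 15.6%, 20.8% and 0.01 over all genes tested. *SLC47A2*, a proton-coupled exporter of organic cations, was at 0.09 and 0.05 FPKM in PC9 and 0.29 and 0.44 FPKM in PC9OR (log2 fold change 2.44, adjusted p = 0.0249). *ATP7B*, a copper pump, was at 0.60 and 0.39 FPKM in PC9 and 1.05 and 1.11 FPKM in PC9OR (log2 fold change 1.2, adjusted p = 0.0281). By edgeR, 0 genes of the list were lower also at an unadjusted p under 0.05, DESeq2 called 0, and pooling the replicates in an MA-plot-based model gave 1. The vault protein *MVP* (log2 fold change -0.49, adjusted p = 0.115) did not pass the test. Of 7 membrane scaffolds that anchor ABC transporters, 6 were tested, 1 was higher and 0 lower, with a median of 0.00, and the one called was *EZR*, which encodes ezrin (0.42, adjusted p = 0.0411). At an unadjusted p under 0.05 edgeR gave 2 lower scaffold genes, DESeq2 called 1 lower and the MA-plot-based model 3, and with length offsets edgeR called 1 lower, *NHERF1* (-0.59, adjusted p = 0.0257).

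Among 20 transcription factors known to act on drug transporter genes, 17 were listed and 16 tested, of which 1 was higher and 4 lower in PC9OR, with a median of -0.30. With length offsets 3 were higher and 4 lower (median 0.04). With length plus GC offsets 8 were higher and 5 lower (median 0.13), so the balance of calls turned with the setting. Over all genes tested it turned as well. Calls of 2056 higher (15.6%) and 2734 lower (20.8%) became 2627 and 2433 with length offsets and 2934 and 2641 with length plus GC offsets. The pregnane and constitutive androstane receptors, *NR1I2* and *NR1I3*, were listed in no library. *AHR*, the aryl hydrocarbon receptor, was at 28.2 and 13.8 FPKM in PC9 and 6.82 and 6.91 FPKM in PC9OR (log2 fold change -1.57, adjusted p = 0.0239). The other called factors, named after their values were seen, were *NFE2L2*, the oxidative stress factor NRF2 (-0.98, adjusted p = 0.0124), *YBX1* (-0.59, adjusted p = 0.0151), *CEBPB* (-0.47, adjusted p = 0.0317) and *PPARG* (0.58, adjusted p = 0.0143). All 5 kept their direction and their call with offsets for length.

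Of 22 genes of xenobiotic metabolism, 12 were tested. In PC9OR 3 were higher and 2 lower, with a median of 0.42, against 15.6%, 20.8% and 0.01 over all genes tested. *CYP1A1*, the classic target gene of the aryl hydrocarbon receptor, was at 0.05 and 0.03 FPKM in PC9 and 0.82 and 0.68 FPKM in PC9OR (log2 fold change 4.34, adjusted p = 0.00659). Its PC9 values rest on 4 and 3 counts, near the floor of 3 counts, so the size of the change is uncertain. *AHR* itself was lower, and a link between these changes was not tested. *SULT2B1*, a sterol sulfotransferase, was at 2.86 and 1.86 FPKM in PC9 and 0.41 and 0.28 FPKM in PC9OR (log2 fold change -2.75, adjusted p = 0.0116). *CYP2D6* was at 1.2 and 1 FPKM in PC9 and 0.36 and 0.45 FPKM in PC9OR (log2 fold change -1.45, adjusted p = 0.0374), and its count is uncertain since it has near-identical pseudogenes. *NQO1* (0.78, adjusted p = 0.0172), a quinone reductase and known NRF2 target, and *POR* (0.79, adjusted p = 0.0122), which donates electrons to the cytochromes P450, were also higher, and both were named after their values were seen. *CYP3A4*, the main enzyme of osimertinib metabolism in liver, did not pass 0.02 FPKM.

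The last lists sit close to *ABCA1* and *ABCB6*. Of 15 genes of the liver X receptor pathway and sterol efflux, 10 were tested. In PC9OR 2 were higher and 4 lower, with a median of -0.17, against 15.6%, 20.8% and 0.01 over all genes tested. *NPC2*, the soluble cholesterol carrier of lysosomes, was at 91.7 and 119 FPKM in PC9 and 386 and 380 FPKM in PC9OR (log2 fold change 1.87, adjusted p = 0.005), and its membrane partner *NPC1* was lower, at 12.8 and 10.1 FPKM against 5.20 and 4.66 FPKM (log2 fold change -1.18, adjusted p = 0.00866). *SCARB1*, the HDL receptor, was lower (-1.27, adjusted p = 0.0137) and *SMPDL3A* higher (1.95, adjusted p = 0.00683). The receptors *NR1H2* and *NR1H3* had log2 fold changes of 0.28 (adjusted p = 0.0988) and 0.47 (adjusted p = 0.0885). Of 15 genes of haem synthesis and export, 14 were tested, 5 were higher and 1 lower, with a median of 0.45. The higher ones, named after their values were seen, were *FECH* (0.97), *UROS* (0.63), *CPOX* (0.64), *FLVCR2* (0.81) and *HMOX1* (0.78).

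**Figure D5:**
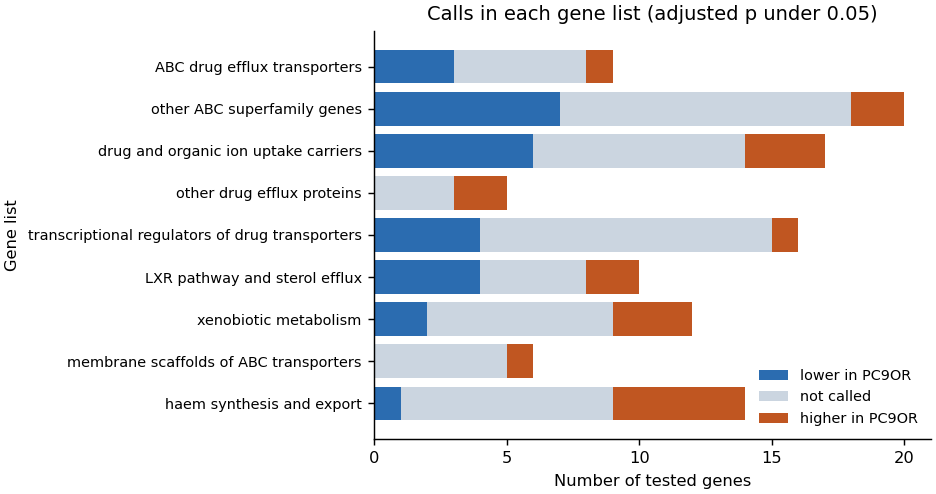
Number of tested genes in each list that were lower in PC9OR (blue), not called (grey) or higher in PC9OR (orange) at an adjusted p under 0.05. The 9 tested drug efflux transporters divide into 3 lower, 5 not called and 1 higher. Over all genes tested, 20.8% were lower and 15.6% higher.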

How the data were processed

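RNA of 2 PC9 and 2 PC9OR libraries, made with a stranded kit, was sequenced by the authors, whose processing notes name Bowtie2 2.2.5, RSEM 1.2.12 and GRCh37. The authors deposited for each listed gene an expected count (an estimated, unnormalized read number), a transcript length, and an FPKM value, which divides the expected count by that length and by a library total. The deposited files list 14753 to 15138 genes per library, with FPKM rounding to at least 0.01, and a gene not listed was given 0. The library total behind the FPKM values was 1.39 to 1.42 times the listed counts. Entrez identifiers were matched to symbols for 99.7% of 16813 genes. Positions and exons came from GENCODE lifted to GRCh37, and upstream windows from RefSeq on GRCh38.p14.

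After rounding, the counts entered edgeR 4.0.16 in R 4.3.3 (TMM, filterByExpr, glmQLFit, glmQLFTest), PC9OR against PC9, with Benjamini-Hochberg adjustment over 13148 genes. A gene was called at an adjusted p under 0.05. Fold changes are relative to TMM-normalized totals, and a floor of 3 counts (0.0932 to 0.129 CPM) covers counting error only. Intervals are 95% intervals of the fit. Scripts were tested on simulated data. Replicate numbers did not pair the libraries in the labels.

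The members and the gene lists were chosen with earlier results of these data known. Named were all members, the genes of each other list called with more than 2-fold change (at most 6 of the largest), the 5 most abundant other ABC genes, the tested genes flanking a member and the cell type markers. Any other gene was named after its values were seen. A few single genes are not reported here by name, though the counts include them. Alternatives were DESeq2 1.42.0 (size factors and Wald test), library totals, an MA-plot-based model on pooled counts (after DEGseq, which the study used), other filters, length and GC offsets (mgcv 1.9.3), limma 3.58.1 on log2(FPKM + 1) and log2(FPKM + 0.1), a replicate block, stricter thresholds and each library left out.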

Additional observations from a re-analysis of the deposited data

How the results depend on the processing

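For the fold changes of the 9 tested members, 128 values under the alternatives kept both direction and side of the threshold and 7 were reversed. Of the rest, 6 newly passed the threshold and 3 no longer passed it, and of the 7 reversed, 2 (*ABCC3*) newly passed it and 3 (*ABCA1*) no longer did. The reversals were those of *ABCC3*, at 0.25 with length offsets, 0.45 with length and GC offsets, 0.26 with the replicate block and length offsets and 0.22 without PC9 replicate 1, and of *ABCA1*, at 0.12, 0.15 and 0.12 under the first 3 of these settings. Those of *ABCC3* with a library left out ran from -0.29 to 0.22, both ends past the threshold. The causes were not tested, beyond the terms that each setting adds. *ABCC1* and *ABCC4* kept their direction and call in all 17 fits.

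The members called, 1 higher and 3 lower in PC9OR, became 1 and 2 with length offsets, 2 and 2 with length and GC offsets, 2 and 5 in the MA-plot-based model, 0 and 0 at more than 2-fold and an adjusted p under 0.001, and 1 and 1 at more than 2-fold and an adjusted p under 0.05. With a library left out they ran from 1 to 2 higher and from 1 to 5 lower, with the lowest count of lower calls (1) without PC9OR replicate 1 and the highest (5) without PC9 replicate 2. In these fits the lone library of a line is assumed to vary like the pair of the other line. The other ABC genes called, 2 higher and 7 lower, became 3 and 6 with length offsets, 5 and 5 with length and GC offsets, 10 and 9 in the MA-plot-based model, 0 and 0 and then 0 and 2 at the 2 fold thresholds, and ran from 0 to 4 higher and from 2 to 9 lower with a library left out. Without a filter on low counts 5 were lower. The strictest threshold, more than 2-fold and an adjusted p under 0.001, is the rule of the study. Where edgeR called 0 at it, more than 2-fold change was also read with an unadjusted p under 0.05. That left 1 member higher and 1 lower and 1 and 2 of the other ABC genes. At the strictest threshold DESeq2 called 1 and 1 members and 0 and 2 others. The MA-plot-based model called 1 and 1 members and 1 and 2 others there.

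The same-numbered libraries of the lines were not paired by any label, and their deviations from the line means had a correlation of 0.055 across genes. With the replicate block, 1 member was higher and 3 lower, and 3 other ABC genes were higher and 5 lower. With the replicate block and length offsets the members were 1 and 2 and the others 4 and 5.

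With 2 libraries a line and PC9 replicates that differ, the 95% intervals of the members without a call reached from -0.84 (*ABCG2*) to 1.24 (*ABCC10*). For *ABCB1* the depth was the limit.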
